A study of Mus musculus with 10 samples.

Results

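The genes described here are those of the gut and brain peptide cholecystokinin and of the serotonin pathway, measured in epididymal white adipose tissue (eWAT), the fat pad beside the epididymis, of obese mice. They are the peptide gene *Cck*, its receptors *Cckar* and *Cckbr*, the tryptophan hydroxylases *Tph1* and *Tph2*, the decarboxylase *Ddc*, the serotonin transporter *Slc6a4* and the monoamine oxidases *Maoa* and *Maob*. Members were chosen by name: every non-control probe that the array's annotation gives one of these gene names was taken, which gave 11 probes for 9 genes, of 55681 probes and 34797 gene names in all. All 10 samples belong to 1 group. They are wildtype male mice, given as C57BL/6JOlaHsd in the protocol and as C57BL/6J in the strain label, that were 9 weeks old at the start, ate a low fat diet for 3 weeks and a high fat diet for 12 weeks at 29°C, and were injected daily for 5 days with desferrioxamine (DFO) at 100 mg/kg. They were killed on day 6 after 2 h without food, at the start of the light phase. DFO binds iron and is used to mimic hypoxia. No control mice were analysed here, so nothing below gives an effect of DFO, of the diet, of the food removal or of the temperature, which all 10 mice share.

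Each mouse had 1 two-colour array. Cy5 labelled its own RNA, and a reference pool made from all mice of the wider study, controls and these mice included, was labelled with Cy3 on every array. Values are log2 ratios of Cy5 over Cy3, so that 0 means the level of the pool and a step of 1 a doubling. Without a dye swap, a probe that takes up one dye better than the other shifts its mean ratio, and no mean was tested against 0. What can be tested is whether a gene varied more between the mice than the pool, which is the same RNA each time, varied between the arrays. The labels do not say whether these mice shared cages or dissection sessions.

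Cholecystokinin is a peptide hormone of the small intestine, where it signals fat and protein to the gall bladder, the pancreas and the vagus nerve, and a neuropeptide of the brain. Serotonin is made from tryptophan in a pair of steps, first by a tryptophan hydroxylase, which needs iron, oxygen and tetrahydrobiopterin, and then by the aromatic amino acid decarboxylase that *Ddc* encodes. *Tph1* serves the gut, mast cells and other peripheral tissues and *Tph2* serves neurons of the brain stem. The transporter takes serotonin back up, and the monoamine oxidases of the outer mitochondrial membrane break it down.

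Stretches of 30 bases from the probes of the 6 genes that were measurable are shown first, because each value below is the brightness of a spot of one such probe. Capitals mark the hexamer AATAAA or ATTAAA, the usual signal for adding the poly(A) tail, from which the labelling starts. It was found in the probes of *Cck*, *Ddc*, *Slc6a4* and *Maoa*, and in 13.7% of all probes on the array, read on the printed strand.
Cck: tgttgctatgctATTAAAgagatttccttc
Tph1: tacttctgttttgtcttctggaacctgctg
Tph2: aaccaatatctggggatttgatgcctagaa
Ddc: ggctaaatactaAATAAAcaacctatgtgc
Maoa: gttccacgtaaaAATAAAgttggccacaga
Maob: cttgcatcttctagttagtctgcttccatt

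On the build mm9, which the array's annotation uses, the *Cck* probe lies at chr9:121398943-121399002 on the minus strand and the *Tph2* probe at chr10:114516684-114516743 on the minus strand. The *Tph1* probe lies at chr7:53902553-53902612 and the *Ddc* probe shown at chr11:11714106-11714165, both on the minus strand. *Maoa* and *Maob* are neighbours on the X chromosome and are read from opposite strands, with probes at chrX:16264785-16264844 and chrX:16286427-16286486. Each of these probes matches 1 unbroken run of 60 bases, whereas 1 of the probes for *Cckbr*, at chr7:112582327-112582546, spans 220 bases and therefore crosses an intron. Exons and UTRs are not given in the sources used here.

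Of the 9 genes, *Cck*, *Tph2*, *Maoa* and *Maob* were well above background in Cy5 in 10 of 10 mice, by the flag of the scanner software. Another 2, *Tph1* and *Ddc*, reached this in 5 of 10 mice. By probe, 6 of 11 were well above background in at least 5 mice and 4 of 11 in all 10, against 49.9% and 41.8% of all probes, so the share of measurable members was close to that of the whole array. *Slc6a4* and *Cckbr* were seen in fewer mice, 4 and 2. *Cckar*, the receptor of the gall bladder and pancreas, was not well above background in either dye on any array, with Cy5 signals from 33.0 to 41.6 over a local background of 30 to 36. Of all probes, 38.7% were at background in Cy5 on every array. The scanner software listed the *Cckar* ratio as exactly 0 for each mouse.

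**Figure D1:**
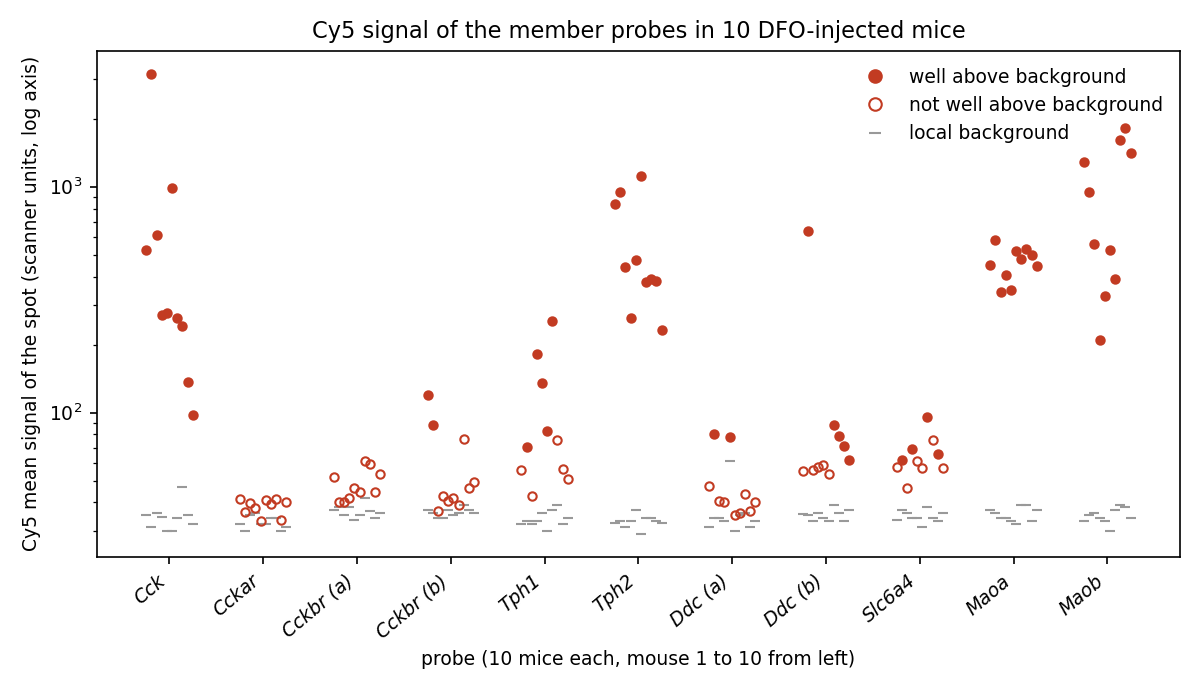
Cy5 mean signal of each member probe in each of the 10 mice (scanner units, log axis), with the local background of the same spot as a dash. Filled points were well above background and open points were not. *Cck* spreads from 97.7 to 3162, while *Cckar* lies near its background in every mouse. Where a gene has 2 probes they are marked a and b.

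Some mice stood apart over the whole array, which bears on what follows. The first component of all expressed probes held 75.1% of the variance and set mice 4 to 7 apart from the other 6, and the second, with 8.80%, set mouse 2 apart. Adipocyte markers, 7 of 7 expressed, were well above background in Cy5 on all 10 arrays. This bore out fat as the tissue, though which fat pad it was could not be read from these markers. Their ratios averaged -2.61 to -1.46 in mice 4 to 7 and -0.16 to 0.65 in the others. These ratios compare each mouse with a pool of the study's own mice, so they do not bear on the label. In RNA of a whole fat pad, fewer cells of a type and less RNA per cell cannot be told apart. Markers of motile cilia, of which 2 of 6 were expressed in at least 5 mice, averaged 1.73 in mouse 2 and -1.33 to -0.41 in the others. Sperm markers, with 3 of 5 expressed, were also highest in mouse 2 (-1.02, against -2.79 to -2.10), and 0 of 5 markers of the epididymis were expressed.

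*Cck* differed between these mice more than almost any other gene. Its log2 ratio ran from -2.74 in mouse 10 through a median of -1.36 to 1.65 in mouse 2, a 20.9-fold range, with a mean of -1.04 ± 1.40 (SD, n = 10). The size of this range depended on the processing. It was 4.39 on the log2 scale here, 5.49 in the scanner software's own ratio and 4.83 in the authors' normalized table. That table follows Cy5 and holds no ratio to the pool. The Cy5 signal was 97.7 in mouse 10 and 3162 in mouse 2, while the Cy3 signal of the same spots stayed between 481 and 641. Mice 2, 3, 6 and 1 were highest, in that order, with 1.65, 0.41, 0.00 and -0.56, and mice 4, 5, 8, 7, 9 and 10 lay at -1.32 or below. The SD of *Cck* was reached by 56 of 25044 probes expressed in both dyes, or 0.224%, where the median SD was 0.18. Mouse 2 was highest but not separated from the rest, its gap to mouse 3 being 0.282 of the range.

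*Tph2*, the neuronal hydroxylase and the rate-limiting step of serotonin synthesis in the brain, was another member with a wide and well measured spread. Its log2 ratio ran from -1.39 in mouse 10 through a median of -0.67 to 0.58 in mouse 2, a 3.91-fold range, with a mean of -0.39 ± 0.76 (SD, n = 10). Mice 2, 1, 3 and 6, the same 4 mice that led in *Cck*, had 0.58, 0.46, 0.45 and 0.30, and the other 6 lay between -1.39 and -0.50. Cy5 signals were 233 to 1117, and an SD as large was found for 3.67% of probes. Mouse 10 was lowest in both genes.

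**Figure D2:**
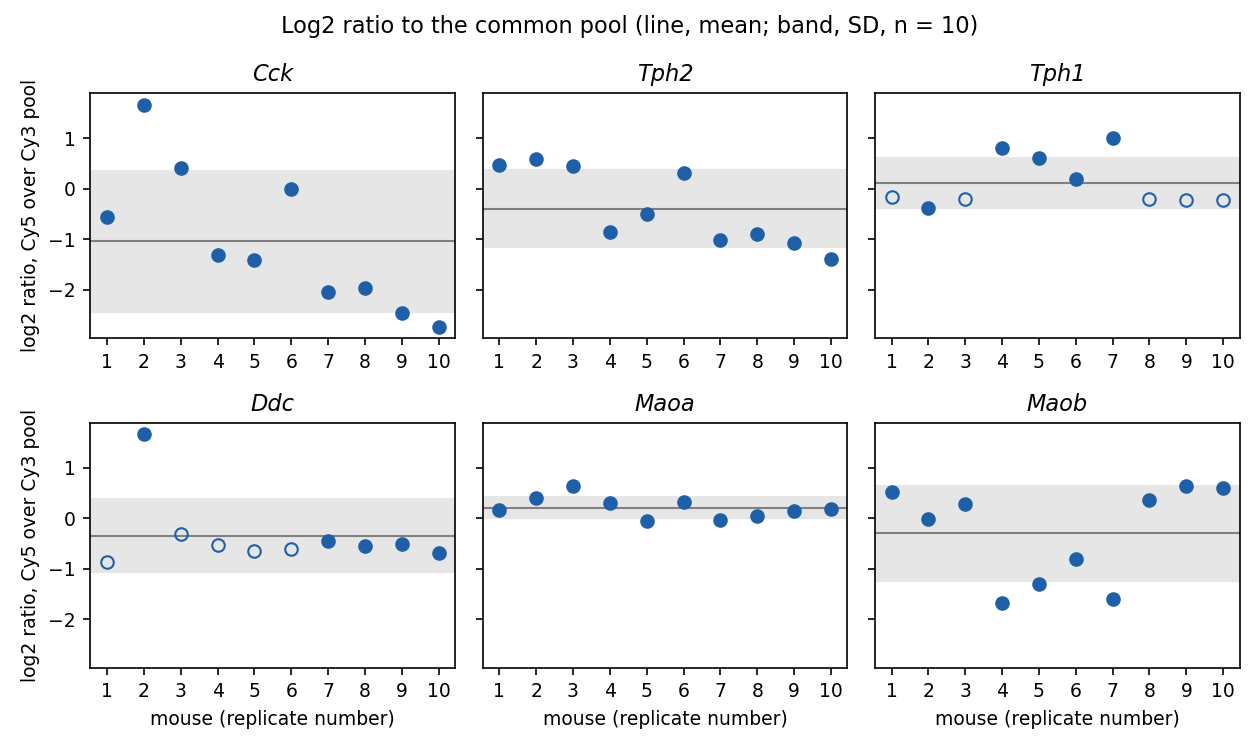
Log2 ratio of Cy5 over the Cy3 pool for the 6 members expressed in at least 5 mice, by mouse, with the mean as a line and the SD (n = 10) as a band. Filled points were well above background in Cy5. *Cck* and *Tph2* are highest in mice 1, 2, 3 and 6, *Tph1* in mice 4 to 7, *Ddc* in mouse 2, and *Maob* is lowest in mice 4 to 7.

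Each of the 5 slides carried 2 of the mice, and on 2 of the slides the neighbours were alike in *Cck*: mice 9 and 10 differed by 0.28 and mice 7 and 8 by 0.07. limma's moderated F test between slides gave *Cck* p = 0.032 and *Tph2* p = 0.019, with a Benjamini-Hochberg adjusted p of 0.697 for both. It called 0 of 27711 probes (0%), of which 1136 had an unadjusted p under 0.05. Within the other slides *Cck* differed by 2.21 between mice 1 and 2, by 1.73 between mice 3 and 4 and by 1.41 between mice 5 and 6. On 5 of 5 slides the mouse with more *Cck* also had more *Tph2* in these ratios. Between mice 7 and 8 both differences were small (0.07 and 0.12), and the authors' normalized table gave them opposite directions. There *Cck* was 7.70 in mouse 7 and 7.67 in mouse 8, and *Tph2* was 8.32 and 8.34 (log2).

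Whether *Cck* and *Tph2* varied together could be tested only in part. *Tph2* parted the mice at a gap of 0.406 of its range, just over the 0.4 set for separate clusters, so r was taken within the 6 mice below the gap (4, 5, 7, 8, 9 and 10). There Pearson's r was 0.877 (exact permutation p = 0.0153, two-sided) and Spearman's rho 0.943 (exact permutation p = 0.0167). Adjusted over the 9 pairs of members with a value, the permutation p was 0.0657 for r and 0.116 for rho, which misses the threshold of 0.05. Without the 2 mice farthest from the median of *Cck*, r was 0.947 over 4 mice. Leaving out 1 mouse at a time gave 0.773 to 0.972.

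**Figure D3:**
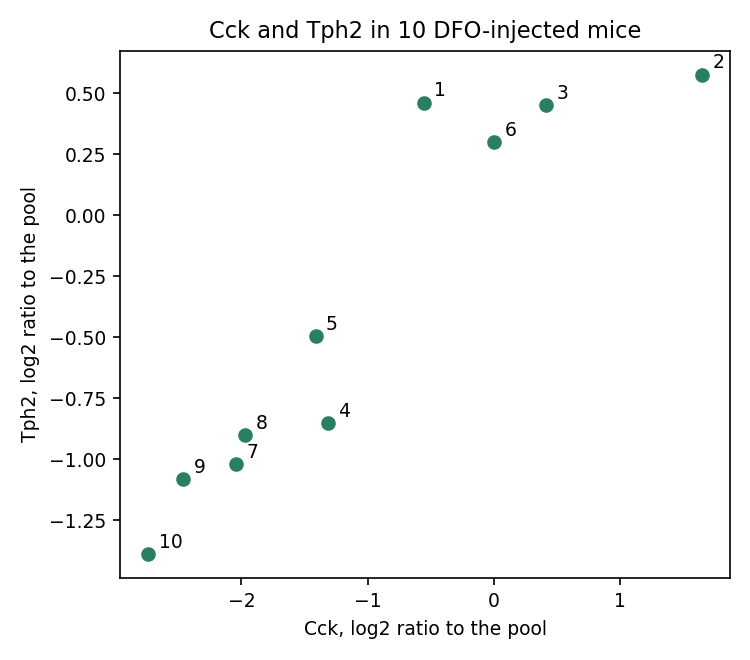
Log2 ratio of *Tph2* against that of *Cck*, 1 point per mouse with its replicate number. Mice 1, 2, 3 and 6 lie at *Tph2* ratios of 0.30 or more, and the other 6 at -0.50 or less.

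For these genes, which had the same 4 leading mice, the 250 bases before the start of the gene are shown, from RefSeq on GRCm38.p6 and read in the direction of the gene: *Cck* at chr9:121495695-121495944 and *Tph2* at chr10:115185023-115185272, both on the minus strand. Since DFO is used to mimic hypoxia, they were searched for ACGTG and GCGTG, the forms of the core that hypoxia-inducible factors bind, on both strands. Capitals mark the matches.
Cck: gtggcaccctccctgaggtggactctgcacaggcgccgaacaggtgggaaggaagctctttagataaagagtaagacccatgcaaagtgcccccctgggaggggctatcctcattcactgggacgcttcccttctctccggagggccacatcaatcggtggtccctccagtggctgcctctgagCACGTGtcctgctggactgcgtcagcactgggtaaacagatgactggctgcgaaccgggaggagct
Tph2: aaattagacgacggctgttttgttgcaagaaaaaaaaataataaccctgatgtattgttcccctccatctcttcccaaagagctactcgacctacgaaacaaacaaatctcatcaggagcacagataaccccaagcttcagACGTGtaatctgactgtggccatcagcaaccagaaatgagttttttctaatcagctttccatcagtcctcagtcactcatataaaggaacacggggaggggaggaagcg
In *Cck* the match is the palindrome CACGTG, which holds ACGTG on both strands, with the first ACGTG starting at position -65, counted back from the gene's start. *Tph2* has 1 match, at -109. Of all 32851 RefSeq promoters, 16.6% hold ACGTG and 28.2% hold GCGTG in the same window. Among 9 promoters of 7 member genes, 3 held ACGTG (*Cck*, *Tph2* and *Cckbr*) and 3 held GCGTG (*Tph1*, *Ddc* and *Slc6a4*). These matches are letters in a window, and no binding was measured. No sequence is given for *Cckar* and *Maob*.

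Genes with a profile most like a member's over the 10 mice were taken from 22003 probes measured in both dyes on every array, and are given as a description. Closest to *Cck* were *Rwdd3* (r = 0.967), *Fam83d* (0.947), *Tph2*, *Dusp2* (0.927), a phosphatase of MAP kinases, and *Zfyve19* (0.918). Closest to *Tph2* were *Pvalb*, which encodes the calcium buffer parvalbumin, *Mapre1*, *9430023L20Rik*, *Fam83d* and *Il13ra2*, which encodes a decoy receptor for IL-13, and *Cck* was not among these 5. Within the 6 mice below the *Tph2* gap their r with *Tph2* was 0.945, 0.732, 0.375, 0.570 and 0.809, so that *Pvalb* and *Il13ra2* followed it inside this set more closely than the rest. *Pvalb* ran from -0.82 to 0.72. All points share the pool on Cy3, the slides and the array normalization.

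*Tph1*, the peripheral hydroxylase, showed another pattern. Its log2 ratio was 0.99 in mouse 7, 0.79 in mouse 4, 0.60 in mouse 5 and 0.18 in mouse 6, and -0.38 to -0.17 in the other 6 mice, with a mean of 0.12 ± 0.50 (SD, n = 10). Cy5 signals were 254, 182, 135 and 83.1 in those 4 mice and 42.9 to 75.8 in the others. The 4 mice were well above background, as was mouse 2 at the lowest ratio. In Cy3 the probe was well above background on 3 arrays, so the pool gave it little to be compared with. The size of the spread of so dim a spot depended on the processing, the range of 1.37 becoming 3.97 in the scanner software's own ratio and 2.11 in the authors' normalized table, with mouse 7 highest in each. In the authors' table mouse 3 stood above mouse 6 (6.48 and 6.33 on its log2 scale).

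Mice 4 to 7 are the 4 in which adipocyte markers were low. Mast cell markers, 7 of 8 expressed, averaged 1.13, 0.91, 0.09 and 1.53 in mice 4, 5, 6 and 7 and -0.68 to -0.09 in the others. For 5 of the 7, among them the granule protease *Cpa3* (-1.54 in mouse 1 to 2.49 in mouse 7), mice 4 to 7 were all above the others. *Kit*, the stem cell factor receptor, was -0.28, -0.43 and -0.81 in mice 4, 5 and 6, and *Hdc*, which makes histamine, was -0.40, -0.40 and -0.82 there and highest in mouse 2 at 1.64. *Ms4a2*, a chain of the IgE receptor, was at background on all arrays. Macrophage markers, 5 of 5 expressed, averaged 0.62 to 0.89 in mice 4 to 7 and -0.87 to -0.01 in the others. The part of either cell type in the *Tph1* values was not tested.

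*Ddc*, whose enzyme completes both serotonin and dopamine, stood out in 1 mouse. On its brighter probe the log2 ratio was 1.66 in mouse 2 and -0.87 to -0.31 in the other 9, with a mean of -0.35 ± 0.72 (SD, n = 10). The Cy5 signal was 639 in mouse 2 and 53.7 to 88.1 elsewhere, where 4 of 9 spots were well above background, while the Cy3 pool was measured on all 10 arrays. The gap below mouse 2 was 0.780 of the range, past Dixon's 95% critical value for 10 values. Of all expressed probes, 5.17% set 1 mouse apart in this way and 1.72% set mouse 2 apart as the highest. Without mouse 2 the range of *Ddc* shrank from 2.53 to 0.56.

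The other *Ddc* probe, at chr11:11776262-11776321 and nearer the start of the transcript, was dim. It passed the flag in mouse 2, with 0.57, and in mouse 5, with 0.24, where the local background was raised to 61, and it lay between -0.22 and 0.09 in the others. Both probes were thus highest in mouse 2 by these ratios, but in the scanner software's own ratio the dim probe was higher in mouse 5 (2.62) than in mouse 2 (2.10), so only the brighter one was read. Mouse 2 is the mouse with cilia markers at 1.73 on average. *Rbfox3*, a neuronal marker, was 1.39 there and -0.70 to -0.41 elsewhere, while the mean of all 6 neuronal markers expressed ran from -0.05 to 0.38 and was highest in mouse 5, where *Tubb3* was 2.31. Whether these bear on *Ddc* was not tested.

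The receptors and the transporter were at the edge of detection. *Cckbr*, the receptor of brain and stomach, passed the flag with 1 of its 2 probes, in mouse 1 (Cy5 signal 119, log2 ratio 0.17) and mouse 2 (87.8 and 0.53), and the other 8 mice lay between -0.17 and 0.15. *Slc6a4* passed it in mice 2, 4, 7 and 9 with Cy5 signals of 61.4 to 95.5, and in the pool on no array. Its highest log2 ratios were 0.35 in mouse 4 and 0.26 in mouse 7, the lowest -0.23 in mouse 1. For both genes no comparison between mice was made beyond these values.

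The monoamine oxidases differed from each other. *Maob*, the form with a preference for phenylethylamine, was low in a block of mice: -1.67 in mouse 4, -1.60 in mouse 7, -1.29 in mouse 5 and -0.82 in mouse 6, against -0.02 to 0.64 in the other 6, with a mean of -0.30 ± 0.95 (SD, n = 10) and a 4.98-fold range. *Maoa*, the form that prefers serotonin, ran from -0.06 in mouse 5 to 0.64 in mouse 3 with a median of 0.17, a 1.63-fold range and a mean of 0.21 ± 0.21 (SD, n = 10). An SD as large as that of *Maob* was found for 1.67% of probes and one as large as that of *Maoa* for 41.4%. The 4 mice low in *Maob* were those low in the adipocyte markers. The mean of the markers was also low there for mesothelium (-1.40 to -0.85 against -0.55 to 0.52) and endothelium (-0.61 to -0.35 against -0.09 to 0.25). Not every marker followed its mean. The endothelial *Kdr* was 0.01 to 0.19 in those 4 mice and -0.16 to 0.68 in the others, and the mesothelial *Wt1* -0.72 to -0.10 and -0.49 to 0.73. The part of these cell types in the *Maob* values was not tested. Genes closest to *Maob* were *Atp6v0e2*, a subunit of the proton pump of acidic organelles, and *Prnp*, the prion protein gene, besides 3 probes named only by a probe or transcript number. Within the 6 mice of the other block their r with *Maob* was 0.954 and 0.925. For *Maoa* the closest named genes were *C2cd2* (r = 0.923), *Sec16a* (0.920), *Hmbox1* (0.908) and *Cd59b* (0.895).

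**Figure D4:**
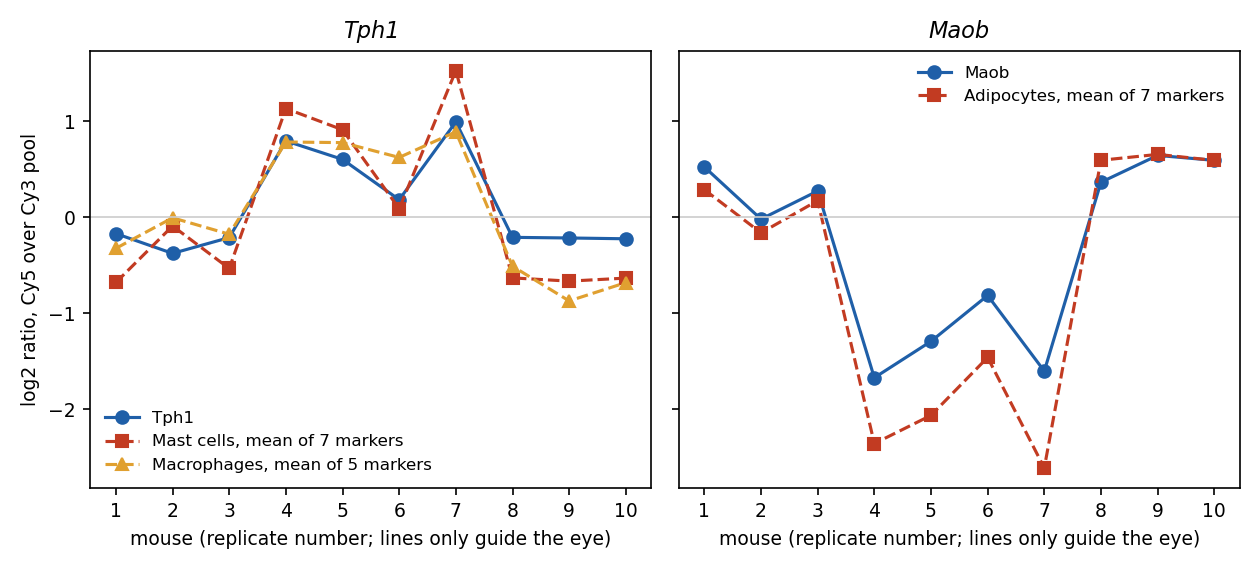
Log2 ratio by mouse of *Tph1* beside the mean of 7 mast cell and 5 macrophage markers (left), and of *Maob* beside the mean of 7 adipocyte markers (right). *Tph1* and both marker means are highest in mice 4, 5 and 7, and *Maob* and the adipocyte markers are lowest in mice 4 to 7. The lines only connect mice, which have no order.

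The Pitman-Morgan test compared the spread of each probe between mice (Cy5) with its spread between repeats of the pool (Cy3). All 5 member genes tested, *Cck*, *Tph2*, *Ddc*, *Maoa* and *Maob*, varied more in Cy5, where 59.8% of the 25044 probes tested did and 0.164% varied less. Since most of the array passed under this normalization, the 5 calls say little about these genes in particular, and the sizes say more. The share of all probes was 40.3% with median centring and 18.7% without normalization between arrays, and 4 of the 5 members passed in each. The SD of log2 Cy5 was 1.46 for *Cck* against 0.0948 in Cy3 (adjusted p = 1.6e-07), 0.96 against 0.0609 for *Maob* (5.2e-07), 0.82 against 0.120 for *Ddc* (1.9e-06), 0.78 against 0.148 for *Tph2* (3.7e-04) and 0.24 against 0.0411 for *Maoa* (2.8e-05). The call on *Ddc* was lost without mouse 2 (adjusted p = 0.068). That on *Maoa* was lost with median centring of the arrays (0.480) and without normalization between arrays (0.699). *Tph1* could be tested only without the filter on dim probes, and then varied more in Cy5 (adjusted p = 4.9e-04). Its probe was well above background in Cy3 on only 3 arrays, so its spread in the pool was poorly measured and this result says little.

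**Figure D5:**
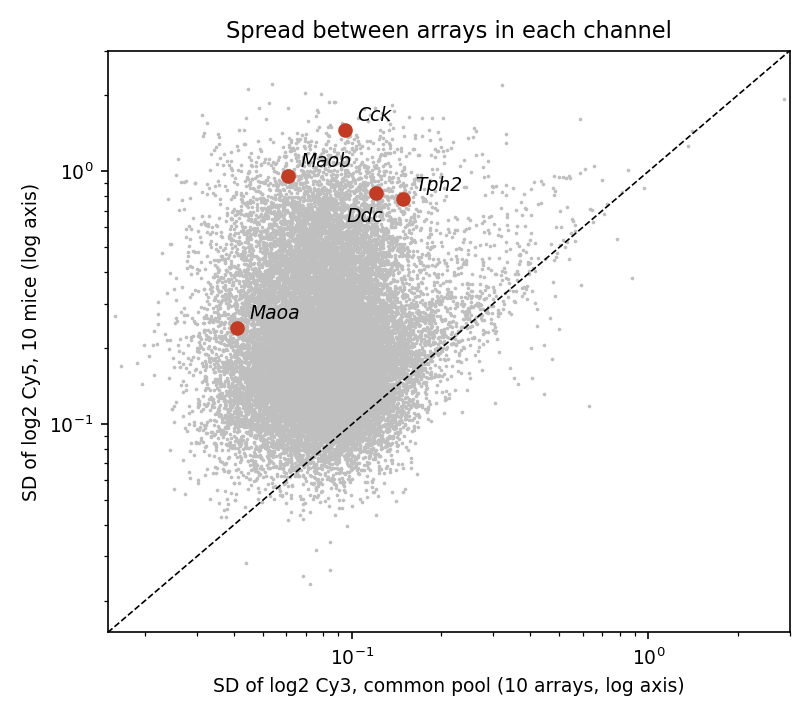
SD of log2 Cy5 over the 10 mice against SD of log2 Cy3 over the 10 repeats of the pool (both log axes), 1 grey point per probe tested, members in red, equality as a dashed line. All 5 members lie above the line, *Cck* at 1.46 against 0.0948.

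Other pairs of members were tested in the same family. *Cck* and *Maoa* had r = 0.684 over 10 mice (permutation p = 0.0277, adjusted 0.0657), falling to 0.416 without the 2 mice farthest out. *Cck* and *Ddc* had r = 0.682 (permutation p = 0.0365, adjusted 0.0657), which turned to -0.400 without 2 mice, so it rests on those, mouse 2 among them. In the 6 mice outside the *Maob* block, *Maob* had r = -0.876 with *Cck* (exact permutation p = 0.0208) and -0.871 with *Ddc* (exact permutation p = 0.0306), both with an adjusted permutation p of 0.0657, and -0.320 and -0.680 without the 2 mice farthest out. Of the 10 pairs, 9 had a value and 0 passed the threshold of 0.05 after adjustment, 5 having an unadjusted permutation p of r under it.

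Further genes of these pathways were read from a list of 58, of which 57 were on the array and 34 expressed. Of the 34, 25 varied more between mice than the pool, where 59.8% of all probes tested did. The median of their mean log2 ratios was -0.02 and of their SDs 0.30, against 0.00 and 0.18 for all expressed probes. Of 14 serotonin receptors, 2 were expressed. *Htr2b*, a receptor coupled to calcium release, had the widest spread of the whole list with an SD of 1.54, from -2.26 in mouse 10 to 1.48 in mouse 5. It was 1.13 to 1.48 in mice 4 to 7 and -2.26 to -0.48 in the other 6. This is the split seen for *Tph1*, and also that of the first component of all expressed probes (75.1% of the variance). Genes named below with mice 4 to 7 apart share this split with much of the array. *Htr7* did not pass the test of spread, with -0.45 to 0.24.

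All 7 genes of tetrahydrobiopterin supply, the cofactor that both hydroxylases use, were expressed, and 5 varied more between mice, not far from the 59.8% of all probes. *Gch1*, the first enzyme of its synthesis, was 0.78 to 1.06 in mice 4 to 7 and -0.77 to -0.03 in the others. *Pcbd1*, which regenerates it, ran the other way, from -1.44 to -0.83 in mice 4 to 7 and 0.06 to 0.40 in the others. *Qdpr*, which also regenerates it, was steady (0.13 ± 0.10, SD, n = 10). *Gchfr*, which encodes the feedback regulator of the *Gch1* enzyme, was 1.53 in mouse 2 and -1.06 to -0.53 in the others. *Ddc* also stood out in mouse 2, the mouse that the second component of all expressed probes set apart.

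Among genes of peptide processing, 7 of 11 were expressed. *Cpe*, which trims prohormones such as that of cholecystokinin, was 0.95 to 1.14 in mice 4 to 7 and -1.11 to 0.13 in the others, and *Chga*, a protein of secretory granules, ran from -0.96 in mouse 2 to 0.16 in mouse 10. Mouse 2, highest in *Cck*, was thus lowest in *Chga*. *Chga* was also the 1 of 5 enteroendocrine markers expressed. Of the breakdown genes 6 of 7 were expressed. *Sult1a1*, a sulfotransferase of phenols and amines, and *Aldh1a1*, an aldehyde dehydrogenase, were lowest in mouse 4 (-1.94 and -1.73) and highest in mouse 9 (0.74 and 0.54), as was *Maob*. *Akr1b3*, an aldose reductase, was highest in mouse 4 (0.55) and lowest in mouse 2 (-0.27).

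The kynurenine route, which takes tryptophan away from serotonin, had 4 of 9 genes expressed, and its entry enzymes *Ido1*, *Ido2* and *Tdo2* were at background on all arrays. All 4 expressed genes, *Afmid*, *Kmo*, *Haao* and the array's *Ccbl1* (now *Kyat1*), were highest in mouse 2, as were 9 of the 34 expressed genes of the whole list, against 10.9% of all expressed probes. The list was chosen with earlier results of these data known, so these counts are a description. For *Afmid* mouse 2 (0.308) barely exceeded mouse 7 (0.301), and this gene did not pass the test of spread. Of storage and uptake, 7 of 8 genes were expressed. They included both vesicle transporters for monoamines, *Slc18a1*, from -0.82 in mouse 9 to 1.02 in mouse 4, and *Slc18a2*, from -0.31 in mouse 1 to 0.73 in mouse 7. *Th*, whose enzyme makes the precursor of dopamine, was expressed, with a mean of 0.02 ± 0.23 (SD, n = 10).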

How the data were processed

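RNA of eWAT from 10 mice was measured on 10 two-colour Agilent arrays (Cy5, mouse; Cy3, common pool; Agilent Feature Extraction 10.7.3.1 per the labels). The authors deposited scanner files whose intensity values are the mean and background brightness of each spot, not normalized, and a log10 ratio that the software computed after its own background and dye correction. The authors also deposited a table of log2 values for 30733 spots. Each column followed log2 Cy5 of its array (r 0.998 to 0.999), with column medians of 8.39 to 8.44 and genes not centred. The table holds no ratio to the pool, so it was used only to compare mice within a probe. The normalization behind it is not given in the sources used here.

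Mean signals were corrected with normexp (offset 50) and loess within arrays in limma 3.58.1 (R 4.3.3), and channels were normalized between arrays with Aquantile. Control spots and 247 to 344 outlier spots per array were left out, and no spot was saturated. Median Cy5 signals were 54.8 to 81.3 over backgrounds of 32 to 37. The number of arrays limits the precision. A probe counted as expressed when well above background in Cy5 on at least 5 arrays, and a gene with several probes was read from the one with the highest mean Cy5 signal among those. Over all expressed probes 10 of 45 pairs of arrays had an r under -0.3, the lowest being -0.46. The labels name the dyes, and Cy3 deviated less than Cy5 on 10 of 10 arrays, so the direction was kept.

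The Pitman-Morgan test (probes expressed in both dyes), limma's moderated F test between slides and permutation tests of r (100000 resamples over 10 mice, exact over 6, smallest p 0.00278) were adjusted by the Benjamini-Hochberg method, with a threshold of 0.05. For the pairs, mice were split at any gap in a member that came to 0.4 of the range and left at least 3 mice on each side, or, a criterion added after seeing the data, where it parted the mice as the first component did. Scripts were tested on simulated data. Python 3.11.15 with numpy 2.4.6, pandas 2.3.3 and scipy 1.17.1 was used for the other steps. Alternatives changed the background correction, the normalization, the source of the ratio, the filter and the mice.

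Members and lists were chosen with earlier results of these data known. Named pathway genes were the expressed ones that varied more in Cy5 with the 6 largest SDs, and those with the 3 highest and 3 lowest means. Others named were chosen after their values were seen. The named like genes are the 5 with the highest r per member. Lists also held Schwann cells (4 of 5 markers expressed, means -0.22 to 0.36), mesothelium (5 of 5, -1.40 to 0.52), endothelium (4 of 4, -0.61 to 0.25) and platelets (3 of 4, -0.28 to 0.33).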

Additional observations from a re-analysis of the deposited data

Results flagged for a closer look

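Among the members and the 79 expressed genes of the pathway and marker lists, a mouse was called apart where its gap to the next passed Dixon's 95% critical value for 10 values. Chance alone gives such a gap in about 5% of groups, and 5.17% of all expressed probes had one. Of the members, mouse 2 stood apart in *Ddc* (brighter probe, gap 0.780 of the range, 1.66 in mouse 2) and in the *Cckbr* probe that passed the detection flag in 2 mice (0.519, with 0.53 in mouse 2 and 0.17 in the next). The *Cckbr* spots lay near the background in the other 8 mice. Of the 79 listed genes, 9 set a mouse apart, 8 of them mouse 2, which 1.72% of all expressed probes set apart as the highest. In the pathway list these were *Gchfr* (gap 0.797, 1.53 in mouse 2 and -0.53 in the next) and *Haao* (0.704, 0.88 and 0.11). Among the markers they were *Rbfox3* (0.865), *Rsph1* (0.822), *Prm2* (0.771), *Hdc* (0.611), *Prm1* (0.571) and *Tekt1* (0.508). The other was *Tubb3*, which set mouse 5 apart (0.799). The means of the motile cilia markers (0.700) and of the sperm markers (0.609) also set mouse 2 apart. The lists were chosen with earlier results of these data known, and the second component of all expressed probes also set mouse 2 apart. The counts in the lists are therefore a description and not a test against all expressed probes.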

How the results depend on the processing

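No paired analysis was possible because all samples belong to 1 group. Slide differences between members were not used for r, since 5 slides give 5 differences and at least 6 were required. The number of probes with more spread in Cy5 was 4683 of 25044 (18.7%) without normalization between arrays, and 13507 to 14402 when 1 mouse was left out. With no filter on dim probes, 8 of 11 member probes varied more in Cy5, against 26.1% of all 55537. Among these 8 were a *Cckbr* probe that was well above background in neither dye on any array, and the dim *Ddc* probe. The *Ddc* probe was well above background in Cy3 on no array. The count of 8 thus rests partly on spots at background. Of the 5 member probes that passed the filter, 4 to 5 varied more in Cy5 with 1 mouse left out. The slide as a block changed no member's call. In the scanner software's ratio, the range of *Tph1* was 3.97, the range of *Ddc* 4.91 and the mean of *Ddc* -1.41. The *Tph1* range was 2.11 in the deposited table. With median centring the mean of *Maoa* was 0.607, those of *Tph2* and *Maob* turned from -0.39 and -0.30 to 0.03 and 0.16, less than their SDs, and that of *Cck* was -0.63. With 1 mouse left out, ranges were 0.557 to 2.53 for *Ddc* and 0.460 to 0.705 for *Maoa*. The r of *Tph2* and *Ddc*, -0.02 over 6 mice, was 0.129 with median centring and 0.141 in the deposited table, and -0.916 to 0.682 with 1 mouse left out. That of *Tph2* and *Maoa* was -0.822 to 0.0056 with 1 mouse left out, and that of *Maoa* and *Maob* turned from -0.57 to 0.149 with median centring. The cause of these changes was not tested. The number of pairs past the threshold stayed at 0 with each mouse left out, but some pairs lay at the threshold. Without mouse 1, the adjusted permutation p of r was 0.05 for *Cck* with *Tph2*, with *Ddc* and with *Maob*. In the deposited table it was 0.05 for *Cck* with *Tph2* and with *Maob*, and for *Ddc* with *Maob*. Ratios of *Tph1*, *Ddc*, *Slc6a4* and *Cckbr* are limited by signals near the background.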
